A study of Mus musculus with 2 samples.

Results

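Insig2, Ccdc93, Htr5b and Ddx18 are the 4 nearest coding genes above En1 on mouse chromosome 1, and the 10 kb bin that holds the annotated start of each was taken as a promoter viewpoint in a capture Hi-C map. They are 4 of the 25 coding genes that the map overlaps, and were chosen by position and annotation, not by their contacts. Capture Hi-C joins pieces of fixed, cut chromatin that touch in the nucleus and uses probes to pull out the joined pieces from a chosen locus, so that read pairs count contacts. The limb buds were wild type, at E10.5, with fore- and hindlimbs together; the cells were fixed in 2% paraformaldehyde and their chromatin was cut with DpnII. The only group, with no treatment and no mutant allele in its labels, had 2 samples, whose titles carry the same replicate number and whose reads were merged into 1 map. The values are therefore pooled, with no spread between embryos and no test between conditions, and since the labels state no sorting, they are averages over the cells of the dissociated limbs. A contact map holds no expression values, so the labelled tissue could not be checked against marker genes.

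En1 encodes a homeobox transcription factor that patterns the ventral limb ectoderm. A promoter can touch distant chromatin in the nucleus when the fibre between folds into loops or into domains, stretches within which contacts are more frequent than across their borders. Borders often carry the DNA-binding protein CTCF, and active promoters also meet each other over long distances. The 4 genes have unrelated products. Insig2 encodes a membrane protein of the endoplasmic reticulum that holds back the SCAP and SREBP complex when sterols are plentiful. Ccdc93 encodes a coiled-coil subunit of the CCC complex, which returns membrane proteins from endosomes to the cell surface. Htr5b encodes a serotonin receptor coupled to G proteins. Ddx18 encodes a DEAD-box RNA helicase of the nucleolus, where ribosomes are made.

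All coordinates are 1-based on mm9 (NCBIM37), with genes from GENCODE M1. Insig2 (ENSMUSG00000003721.8) runs from 123229166 down to 123200930 on the minus strand, and its start lies 730 kb above that of En1. Ccdc93 (ENSMUSG00000026339.12) runs from 123327626 to 123403037 on the plus strand, 829 kb above En1. Htr5b (ENSMUSG00000050534.8) runs from 123425042 down to 123406419 on the minus strand, at 926 kb. Ddx18 (ENSMUSG00000001674.5) runs from 123464566 down to 123450412 on the minus strand, at 966 kb. The viewpoint bins began at 123220001, 123320001, 123420001 and 123460001. The bins of Insig2, Ccdc93 and Htr5b held exon 1 of the gene with sequence upstream of it, and the Ddx18 bin held exons 1 to 3 with 5434 bp upstream. Insig2 has 10 annotated coding transcripts, of which 9 start inside the bin; besides the outermost pair, 39 bp apart, 7 of these start between 4565 and 4911 bp further into the gene.

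The 200 bases upstream of the Insig2, Ccdc93 and Ddx18 starts are printed because they show how differently these promoters are built. Lower case is plain sequence, and capitals mark GATC, the site DpnII cuts, or AGGGGGCGC, a 9-base piece shared with many CTCF sites, both searched on both strands. Each sequence reads 5′ to 3′ on the gene's own strand and ends at the base before the start.
Insig2, chr1:123229167-123229366, minus strand: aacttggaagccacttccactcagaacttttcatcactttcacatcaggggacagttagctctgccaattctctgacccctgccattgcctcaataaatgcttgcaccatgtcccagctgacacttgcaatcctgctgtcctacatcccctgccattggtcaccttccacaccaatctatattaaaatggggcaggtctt
Insig2 inner start, chr1:123224602-123224801, minus strand: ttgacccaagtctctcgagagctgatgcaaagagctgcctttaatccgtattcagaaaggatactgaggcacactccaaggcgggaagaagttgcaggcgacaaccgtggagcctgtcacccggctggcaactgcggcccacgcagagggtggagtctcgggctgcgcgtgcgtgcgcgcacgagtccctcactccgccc
Ccdc93, chr1:123327426-123327625, plus strand: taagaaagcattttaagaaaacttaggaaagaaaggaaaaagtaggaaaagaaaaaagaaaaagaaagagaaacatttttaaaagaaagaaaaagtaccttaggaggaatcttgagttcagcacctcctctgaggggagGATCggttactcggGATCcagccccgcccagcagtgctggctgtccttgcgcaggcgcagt
Ddx18, chr1:123464567-123464766, minus strand: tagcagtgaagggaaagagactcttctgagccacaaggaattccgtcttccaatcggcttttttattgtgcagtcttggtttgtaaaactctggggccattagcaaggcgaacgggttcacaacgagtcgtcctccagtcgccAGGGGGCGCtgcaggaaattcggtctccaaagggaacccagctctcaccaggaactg
The outer Insig2 window had 0 CpG dinucleotides, whereas the window at its inner start, inside the gene, had 16. The other windows shown had 5 CpGs (Ccdc93) and 9 CpGs (Ddx18), and the median of the 25 coding starts from 120.18 Mb up was 11, with a range from 0 to 31. GATC stood in 7 of the 25 windows (28.0%), and of the windows shown only that of Ccdc93 held it, at 2 places. The 9-base piece stood from 57 to 49 bases upstream of the Ddx18 start, on the gene's strand; it was in 1 of the 25 windows (4%) and in 10 of 422 bins (2.37%). It was searched for after these sequences had been seen.

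A 12-base CTCF core (CC, any 3 bases, AGG, any base, GGC) was searched on both strands of each viewpoint bin. It occurred in 97 of the 422 bins used (23.0%). Of the 4 viewpoint bins only that of Htr5b held one, in the 5′ UTR of exon 1, 118 bp inside the start, and the bin of the En1 start also held one, 6773 bp upstream of that start. The sites are printed on the strand of the match with the core in capitals. All 4 viewpoint bins, with or without a core, met the bin of the En1 start more often than expected, as described below.
Htr5b core, chr1:123424915-123424944, minus strand: aaagaagcgCCAAAAGGAGGCtgcagtttg
En1 bin core, chr1:122492213-122492242, minus strand: agtcacctcCCCCAAGGAGGCcactggccc
A match is a run of letters and was not tested for CTCF binding here.

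The map held 6484654 read pairs in 475 bins of 10 kb from 119.65 to 124.40 Mb. The 422 bins from 120.18 Mb up were used, with a median total of 23885.5 read pairs and 7 poorly covered bins. The Insig2 bin had 21586 read pairs (95% interval 21299.0 to 21875.9), the Ccdc93 bin 32205, the Htr5b bin 26758 and the Ddx18 bin 22727, so none of the 4 was poorly covered. Pairs with both ends in the viewpoint bin were 22.4% of the total for Insig2, 24.2% for Ccdc93 and 26.1% for Htr5b, near the median of 21.6% over the bins used. For Ddx18 they were 43.4%, the tenth highest of the 422 bins (rank 10). Its read pairs with all other bins were accordingly few, at 12826 against 17068.1 expected, a ratio of 0.751; that ratio was 0.939 for Insig2, 1.002 for Ccdc93 and 0.968 for Htr5b.

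The expected count of a bin pair is the mean balanced contact value at its distance, multiplied back by the coverage factors of both bins. The observed/expected ratio (O/E) is therefore 1 for a pair that meets as often as an average pair of the map at that distance. Its 95% interval is exact Poisson and covers counting error only, since the merged map gives no spread between samples. The read pairs carry no molecular identifiers. Balancing gives every bin the same total, so a viewpoint high in some stretch has to be lower in others. Where the low total of Ddx18 outside its bin matters, its ratio is also given with the expected counts rescaled to that total.

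All 4 promoters looked toward lower coordinates, where En1 lies. The share of read pairs on the lower side was 57.6% for Insig2 (Wilson 95% interval 56.8 to 58.3%), where distance and coverage alone gave 53.6%. It was 66.3% against 57.4% for Ccdc93, 65.1% against 59.0% for Htr5b, and 64.3% against 61.2% for Ddx18. Ccdc93 thus had the widest gap from its expected share and Ddx18 the narrowest. This share is not given here for the bins around the promoters, so it cannot set the promoters apart from them.

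**Figure D1:**
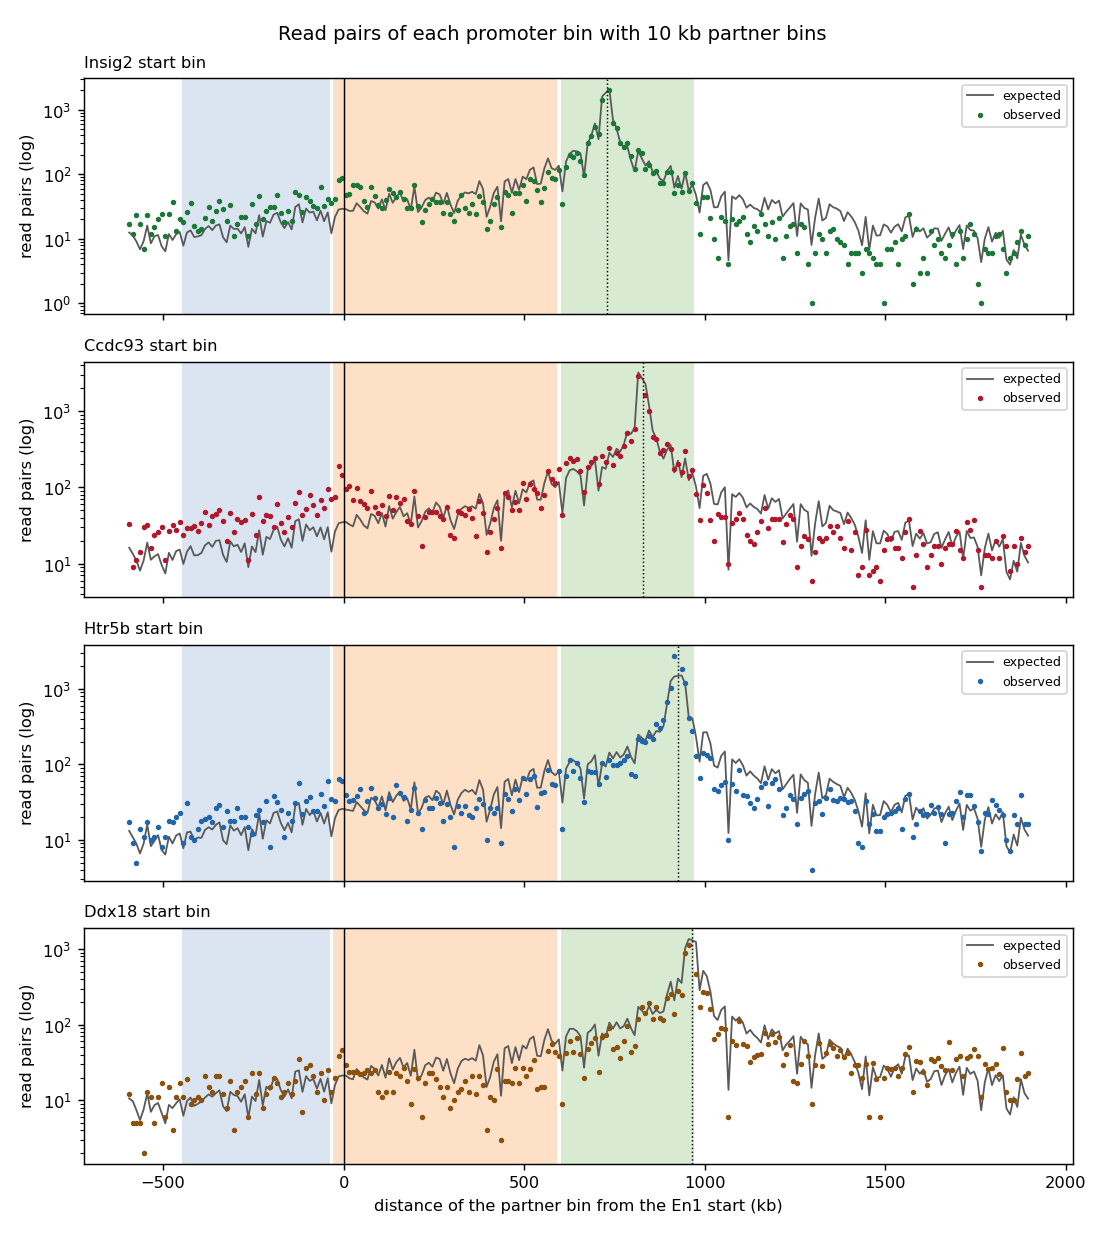
Read pairs of each promoter bin with 10 kb partner bins (points, log axis) and the expected count (line), against the distance of the partner from the En1 start (kb). Shading marks the Steap3-Marco domain (blue), the En1 domain (orange) and the domain of the 4 genes (green); the solid line is the En1 start and the dotted line the viewpoint. Points rise above the line around the En1 start and below it in coordinate, and most lie under it just above the domain of the 4 genes.

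The En1 domain, from 122.47 to 123.09 Mb, is the stretch between neighbouring insulation minima that holds En1, and it has no other coding start. Its 62 bins received 2833 read pairs from Insig2, 4026 from Ccdc93, 2141 from Htr5b and 1264 from Ddx18. Against 3303.3, 3509.7, 2599.0 and 2092.1 expected, the O/E was 0.858 for Insig2 (0.826 to 0.890), 1.15 for Ccdc93 (1.11 to 1.18), 0.824 for Htr5b (0.789 to 0.859) and 0.604 for Ddx18 (0.571 to 0.638; 0.804 when rescaled). Of the 4 promoters only that of Ccdc93 was above its expected count over the whole domain, and its interval lay apart from the others. It was not the highest of its neighbourhood. The 37 bins from 123.10 to 123.47 Mb, the domain of the 4 genes, had a median of 0.898 and ran from 0.604 to 1.42. Ccdc93 ranked 5 of the 37, Insig2 24, Htr5b 26 and Ddx18 37. The highest bin, starting at 123300001, overlaps no coding gene. Summed over the 4 viewpoints the O/E was 0.892 (0.875 to 0.910), and it turned to 1.03 when the expected count came from distance alone or from the median balanced value.

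These averages hid a gradient along the domain. In the 100 kb tile from 122.47 to 122.57 Mb, which holds En1, the O/E was 2.05 for Insig2 (575 read pairs against 279.9), 2.84 for Ccdc93 (953 against 335.9), 1.61 for Htr5b (404 against 250.9) and 1.34 for Ddx18 (275 against 204.7). Every viewpoint was above 1 there, beyond counting error. In the tile from 122.87 to 122.97 Mb, nearer to the viewpoints, the values were 0.628, 0.823, 0.621 and 0.417 in the same order, all with intervals below 1. The promoters therefore met the far, En1-bearing end of the domain more than its middle, relative to distance.

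The bin of the En1 start, from 122.49 to 122.50 Mb, shared 87 read pairs with the Insig2 bin against 29.1 expected, an O/E of 2.99 (2.39 to 3.68). It shared 146 with Ccdc93 against 34.9, an O/E of 4.19 (3.53 to 4.92). It shared 61 with Htr5b against 25.7, an O/E of 2.37 (1.81 to 3.05), and 46 with Ddx18 against 21.2, an O/E of 2.17 (1.59 to 2.89). Rescaled to each viewpoint's total, Ddx18 was at 2.88 and Htr5b at 2.45, which turns the order of these. Before rescaling, each of the 4 intervals lay above 1.5. The Ccdc93 interval overlapped only slightly with that of Insig2 and not with those of Htr5b and Ddx18, whose own intervals overlapped. Among all bin pairs of the same distance, the En1 pair ranked 6 of 349 for Insig2, 4 of 339 for Ccdc93, 11 of 329 for Htr5b and 17 of 325 for Ddx18.

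The high contacts were not limited to the bin with the En1 start. The next lower bin, 122480001 to 122490000, overlaps no coding gene; it had 190 read pairs with Ccdc93 against 33.7 expected (5.63, 4.86 to 6.49), 82 with Insig2 (2.89), 63 with Htr5b (2.54) and 38 with Ddx18 (1.84). For Ccdc93 this was more than the En1 start bin itself, though the intervals overlapped. The border bin of the domain, 122460001 to 122470000, lay 29 kb below the En1 start and was at 4.89 for Ccdc93 (70 against 14.3), 3.16 for Htr5b, 2.96 for Insig2 and 1.43 for Ddx18 (0.762 to 2.45). On the other side, the bin with the 3′ part of En1 was lower, at 1.67 for Insig2, 2.69 for Ccdc93, 1.55 for Htr5b and 1.36 for Ddx18. In 5 kb bins the pairs with the En1 start bin were few, at 33 read pairs for Insig2 (3.70, 2.55 to 5.20) and 51 for Ccdc93 (4.55, 3.39 to 5.99). Htr5b had 20 (2.80, 1.71 to 4.32) and Ddx18 14 (1.87, 1.02 to 3.13). The 5 kb bin just below gave 2.63 for Insig2, 4.55 for Ccdc93, 3.53 for Htr5b and 2.36 for Ddx18. For each promoter the intervals of the 2 bins overlapped. The 5 kb viewpoint bin of Insig2 begins at 123225001, so it leaves out the inner starts of that gene.

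The 4 promoters were not the bins of their neighbourhood that met En1 most. Their own domain, from 123.10 to 123.47 Mb, holds no other coding start and has 37 bins, whose O/E with the En1 start bin had a median of 2.86 and ran from 1.40 to 6.17. Every bin of the domain was thus above 1. Ccdc93 ranked 8 of the 37, Insig2 17, Htr5b 29 and Ddx18 33. The highest bins were the bin starting at 123300001 (6.17, 5.10 to 7.40), which lies between Insig2 and Ccdc93 and overlaps no coding gene, and 123110001 to 123120000 (6.08, 5.40 to 6.82) near the border with the En1 domain. The Ccdc93 promoter lies on the shoulder of the first of these peaks, 20 kb above it. These ranks describe the bins of 1 map, and no value was calculated for how often such ranks would arise by chance.

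**Figure D2:**
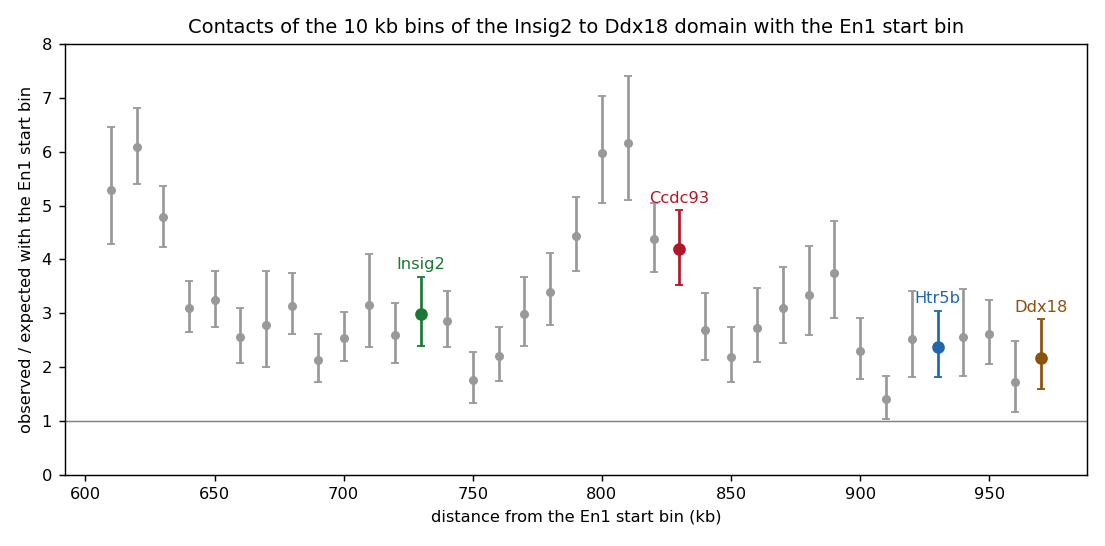
Observed/expected contacts of each 10 kb bin of the domain of the 4 genes with the bin of the En1 start, against distance from that bin (kb); bars are exact Poisson 95% intervals for counting error. The Insig2, Htr5b and Ddx18 bins lie between 2.17 and 2.99, near or below the median of 2.86, and the Ccdc93 bin at 4.19 lies beside the peak of 6.17.

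At the other end of the En1 domain, next to their own, the viewpoints did not show a like excess. In the 4 bins that end at 123.10 Mb the O/E ran from 0.618 to 0.848 for Insig2, from 1.03 to 1.46 for Ccdc93, from 0.696 to 1.02 for Htr5b and from 0.516 to 0.912 for Ddx18. Only the bin starting at 123090001 with Ccdc93 had an interval above 1 (172 read pairs against 117.5; 1.46, 1.25 to 1.70). For Ddx18, the bin 123050001 to 123060000 was its lowest partner within 1 Mb, with 15 read pairs against 63.0 (0.238, 0.133 to 0.393).

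Beyond En1, contacts above the expected count went on into the neighbouring domain from 122.05 to 122.46 Mb, which holds the starts of Steap3, a ferrireductase, C1ql2, a secreted C1q-like protein, and Marco, a macrophage scavenger receptor. The O/E over its 41 bins was 1.66 for Insig2 (1.57 to 1.76; 1176 read pairs), 2.14 for Ccdc93 (2.04 to 2.24; 1773), 1.49 for Htr5b (1.40 to 1.58; 979) and 1.19 for Ddx18 (1.10 to 1.28; 646). Each was higher than the same promoter's value over the En1 domain, and the intervals did not overlap. This too was common to the neighbourhood, since the 37 bins of the genes' own domain had a median of 1.91 there, and the members ranked 27 (Insig2), 7 (Ccdc93), 35 (Htr5b) and 37 (Ddx18). Rescaled, Ddx18 was at 1.58, above Htr5b at 1.54, so its last place depends on its low total.

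At single promoters the counts were small. Insig2 and Steap3 shared 29 read pairs against 10.6 (2.75, 1.84 to 3.94), and Ccdc93 and Steap3 shared 36 against 13.0 (2.77, 1.94 to 3.83). Steap3 had 15 read pairs with Htr5b (1.52, 0.853 to 2.51) and 12 with Ddx18 (1.44, 0.743 to 2.51), with intervals that hold 1. Ccdc93 and Marco shared 79 against 27.4 (2.88, 2.28 to 3.59), whereas Marco gave 1.53 with Insig2, 1.74 with Htr5b and 1.60 with Ddx18. C1ql2 had between 6 and 15 read pairs with each viewpoint, and only its interval with Htr5b (2.07, 1.16 to 3.41) lay above 1. En1 itself was below its expected count with these genes, at 0.381 with Marco (0.310 to 0.462), 0.550 with Steap3 (0.379 to 0.772) and, with an interval that reached 1, 0.729 with C1ql2 (0.508 to 1.01).

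**Figure D3:**
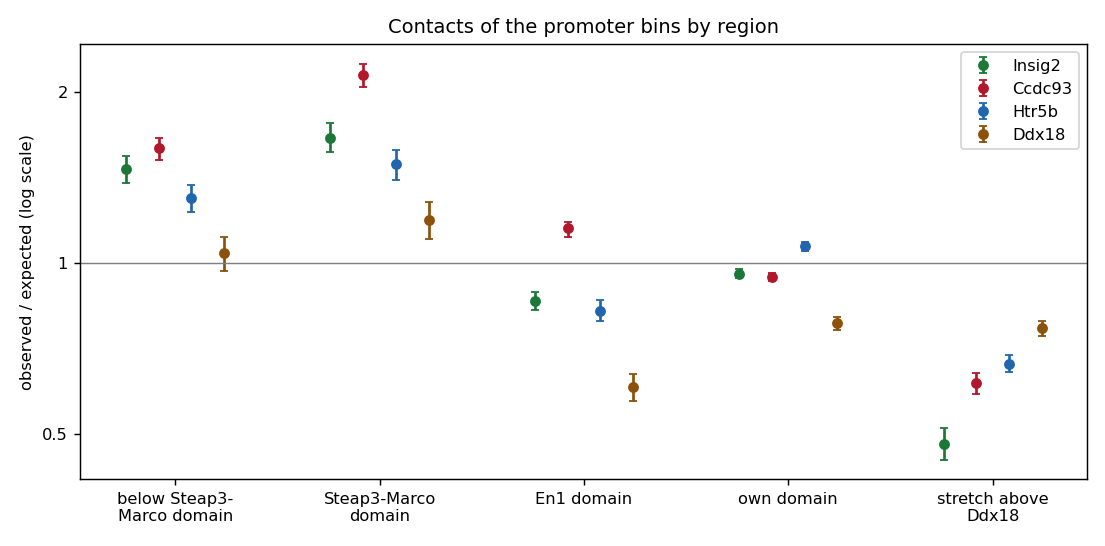
Observed/expected contacts (log scale) of the 4 promoter bins with 5 stretches ordered by coordinate; bars are exact Poisson 95% intervals. Ccdc93 is highest in the stretch below the Steap3-Marco domain (1.59), in that domain (2.14) and in the En1 domain (1.15), and all 4 lie below 1 in the stretch above Ddx18.

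Within their own domain Insig2, Ccdc93 and Htr5b stayed close to the expected counts and Ddx18 was lower, at 0.958 for Insig2, 0.945 for Ccdc93, 1.07 for Htr5b and 0.783 for Ddx18. These carried the most reads, with 10178, 14175, 12007 and 5399 pairs, so counting error was small. Their side of 1 depended on the processing, as each of the 4 changed side under at least 1 alternative; for Ddx18 this was rescaling, which gave 1.04.

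The 4 promoters showed no common excess among themselves. Insig2 and Ccdc93 shared 214 read pairs against 175.4 expected (1.22, 1.06 to 1.40), the only pair of the 6 with an interval above 1. Insig2 and Htr5b shared 68 against 93.7 (0.726, 0.563 to 0.920), and Insig2 and Ddx18 shared 72 against 68.8 (1.05, 0.819 to 1.32). Ccdc93 shared 201 with Htr5b against 224.0 (0.897, 0.777 to 1.03) and 169 with Ddx18 against 153.6 (1.10, 0.941 to 1.28). Htr5b and Ddx18, only 40 kb apart, shared 279 against 408.0 (0.684, 0.606 to 0.769). Their sum gave 0.893 at 10 kb, but 1.14 at 5 kb. In 5 kb bins Ccdc93 and Ddx18 shared 87 read pairs against 50.9 (1.71, 1.37 to 2.11), Insig2 and Ccdc93 75 against 49.6 (1.51, 1.19 to 1.90), and Ccdc93 and Htr5b, now above 1, 67 against 59.5 (1.13, 0.873 to 1.43). At 10 kb each promoter thus had a higher O/E with En1 than with any of its 3 neighbours, each against the average at its own distance. The balanced signal itself was lower with En1 than with the neighbours, except for Insig2, at 71.5 with En1 and 61.1 with Htr5b. An O/E above 1 with the En1 start bin was common to every bin of the genes' own domain.

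**Figure D4:**
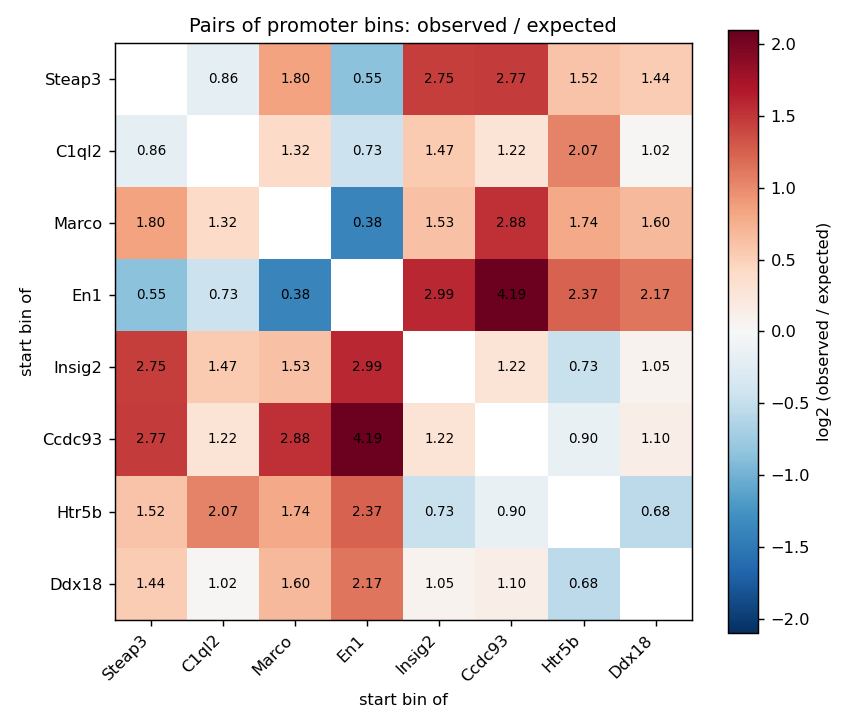
Observed/expected contacts between the 10 kb start bins of the 4 genes, En1 and the 3 genes below En1; colour is log2 of the printed ratio. The En1 row reads 2.99, 4.19, 2.37 and 2.17 for Insig2, Ccdc93, Htr5b and Ddx18, against 0.38 to 0.73 for the genes below, and the 6 pairs among the 4 genes lie between 0.68 and 1.22.

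Above Ddx18, from 123.48 to 124.40 Mb, the map has no coding start, and the viewpoints made fewer contacts there than expected. The O/E was 0.480 for Insig2 (0.451 to 0.512; 971 read pairs against 2021.4), 0.614 for Ccdc93 (2188 against 3562.6), 0.665 for Htr5b (3063 against 4604.1) and 0.767 for Ddx18 (4118 against 5370.8). This was common to the neighbourhood, since the 37 bins of the genes' own domain had a median of 0.606 there and ran from 0.399 to 0.799. Insig2 ranked 35 of the 37, Ccdc93 17, Htr5b 12 and Ddx18 2. Ddx18, whose start lies under 10 kb from the border bin at 123.47 Mb, was at 1.02 when rescaled to its own total. With the border bin itself Ddx18 had 465 read pairs against 1246.0 (0.373, 0.340 to 0.409; 0.497 rescaled), lower than Htr5b at 0.549, Insig2 at 0.756 and Ccdc93 at 0.810.

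The O/E of these contacts was higher in the last tile than in the first for all 4 viewpoints, and most so for Ddx18. Tiles were not calculated for the other bins of the genes' own domain. In 100 kb tiles the O/E of Ddx18 was 0.496 from 123.47 to 123.57 Mb and 1.28 from 124.07 to 124.17 Mb. It was 1.71 (1.53 to 1.89, 349 against 204.7) from 124.17 to 124.27 Mb. Htr5b followed with 0.522, 0.898 and 1.23 in the same tiles, and Ccdc93 with 0.577, 0.682 and 1.06. Insig2 remained below 1 in all 3, at 0.494, 0.549 and 0.703. In the last, shorter tile, from 124.37 to 124.40 Mb, Ddx18 was at 2.05 (1.64 to 2.53) and Htr5b at 1.59 (1.24 to 2.00). Ccdc93 was at 1.27 and Insig2 at 1.23 there, with intervals that hold 1. The lowest partner of Insig2 within 1 Mb also lay above Ddx18. It was the bin 123990001 to 124000000, with 1 read pair against 16.7 expected, a ratio of 0.0599 with a counting interval from 0.00152 to 0.334.

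At 1 Mb or more, where nearly all partners lie below En1, all 4 promoters had more contacts than expected. Insig2 had 1927 read pairs against 1346.2 (1.43, lower bound 1.37), Ccdc93 3044 against 1769.1 (1.72, 1.66 to 1.78), Htr5b 2153 against 1601.3 (1.34, 1.29 to 1.40) and Ddx18 1542 against 1404.0 (1.10, 1.04 to 1.15; 1.46 rescaled). Among the 24 bins with a coding start, Ccdc93 ranked 1, Insig2 5, Htr5b 7 and Ddx18 17, while En1 was the lowest at 0.777. In the genes' own domain the 37 bins had a median of 1.39 and ran from 0.805 to 1.80. Ccdc93 ranked 2 of the 37, Insig2 16, Htr5b 25 and Ddx18 35. These ranks are of values before rescaling. Rescaled, Ddx18 at 1.46 was above Htr5b at 1.39, so its place below Htr5b depends on its low total.

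**Figure D5:**
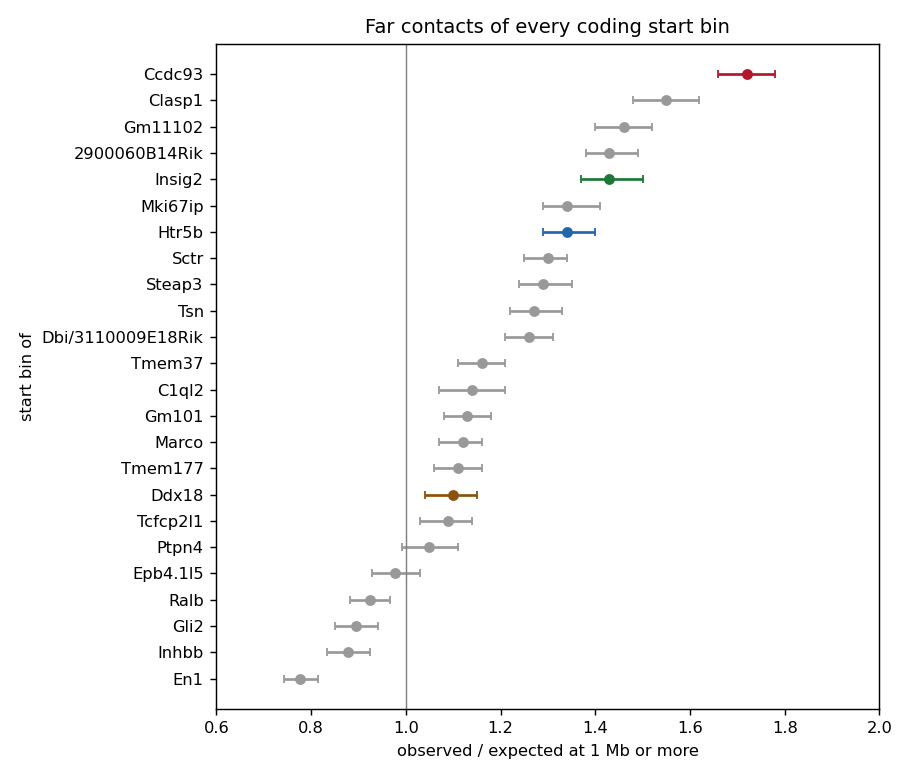
Observed/expected contacts at 1 Mb or more for each of the 24 bins that hold a coding start from 120.18 Mb up, in order of value; bars are exact Poisson 95% intervals. Ccdc93 is highest at 1.72, Insig2 is at 1.43, Htr5b at 1.34, Ddx18 at 1.10 (1.46 rescaled, not drawn) and En1 lowest at 0.777.

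Far partners that hold a coding start were met more often than those without for 3 of the promoters. The O/E was 1.86 against 1.39 for Insig2, 1.97 against 1.70 for Ccdc93, and 1.42 against 1.07 for Ddx18, and the intervals of the compared values overlapped only for Ccdc93 (1.74 to 2.21 and 1.64 to 1.76). For Htr5b it was 1.33 (1.14 to 1.53) against 1.35 (1.29 to 1.41), with no such gap. Summed, the values were 1.64 (1.53 to 1.76) and 1.40 (1.36 to 1.43). Far bins that overlap any coding gene, which include the start bins, were also above the rest for all 4. The O/E was 1.57 against 1.24 for Insig2, and the intervals overlapped for Ccdc93 and Htr5b only. The gap was not shown to be particular to starts. Of the 165 read pairs of Ddx18 with far start bins, 12, 11 and 11 came from the Mki67ip, Tsn and Clasp1 starts. Without these its gap was not calculated, nor was the gap for other bins of the genes' own domain.

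The farthest domain, from 120.18 to 120.43 Mb, gave the highest far value for each promoter. Its coding starts include Tsn, which encodes the nucleic acid-binding protein translin, Mki67ip, which encodes a nucleolar RNA-binding protein, and Clasp1, which encodes a microtubule plus-end protein. The O/E was 2.46 for Insig2 (2.09 to 2.87; 159 read pairs), 2.45 for Ccdc93 (2.14 to 2.81; 214), 2.21 for Htr5b (1.89 to 2.57; 167) and 2.70 for Ddx18 (2.31 to 3.13; 174). Ddx18 was therefore not low here; its value rescaled was 3.59, against 2.62, 2.45 and 2.28 for the others. Over the 37 bins of the genes' own domain the median was 2.11, and Ddx18 ranked 3, Insig2 8, Ccdc93 9 and Htr5b 14. The 2 strongest partners of Ddx18 by the lower bound were the bins of the Mki67ip start (12 read pairs against 2.26; 5.32, 2.75 to 9.28) and the Tsn start (11 against 2.23; 4.94, 2.46 to 8.83), followed by that of the Clasp1 start (11 against 2.44; 4.50, 2.25 to 8.06). Each ranked 1 at its distance, among 97, 96 and 104 bin pairs. Those counts are small, and the expected values at such distances rest on few bin pairs. Each of these 3 bins holds a CTCF core, shown here with its flanks, as do 23.0% of all bins used. Of the 12 different bins that were top partners of Insig2, Ccdc93 or Htr5b, 3 hold one, and the Tsn start bin is in both sets. The share among all bins with a coding start is not given here, so these cores do not set the partners of Ddx18 apart.
Mki67ip start bin core, chr1:120218314-120218343, plus strand: agtttgtggCCAGTAGGTGGCgctcgagct
Tsn start bin core, chr1:120207448-120207477, plus strand: aatccggaaCCAAGAGGCGGCctaacctaa
Clasp1 start bin core, chr1:120289671-120289700, minus strand: tcctagcaaCCACAAGGTGGCtcacaacca

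Enriched partners were bins no nearer than 100 kb with 10 or more read pairs and an O/E whose lower bound exceeded 1.5. Over all bin pairs of the map at 100 kb or more with enough reads, 5.88% passed this rule. Insig2 had 17 enriched bins of 213 with enough reads (7.98%), Ccdc93 46 of 289 (15.9%), Htr5b 14 of 248 (5.65%) and Ddx18 9 of 220 (4.09%). The share of Ccdc93 lay furthest above that background and that of Insig2 somewhat above it, while Htr5b and Ddx18 were below it. These counts depend on the rule: with a local ring as a further condition they were 7, 17, 9 and 5, and the 46 of Ccdc93 became 29 in 5 kb bins and 110 with the expected count from distance alone. Under 1 Mb the counts were 7 of 144, 15 of 169, 4 of 170 and 4 of 164, where 5.95% of all pairs with enough reads passed. At 1 Mb or more they were 10 of 69, 31 of 120, 10 of 78 and 5 of 56, where 5.72% passed. All 4 shares at that distance were above this background of the whole map, at 14.5%, 25.8%, 12.8% and 8.93%, the last from only 5 bins. However, needing 10 read pairs at a median expected count of 4.65 to 6.20 keeps mainly pairs that are high. The share for the other bins of the genes' own domain at that distance was not calculated. Their far O/E was also high, with a median of 1.39 over the domain, so these shares do not set the promoters apart.

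By stretch, the En1 domain held 4 enriched bins for Insig2, 8 for Ccdc93, 2 for Htr5b and 1 for Ddx18, out of 62, 62, 60 and 57 bins with enough reads. Of all bin pairs with enough reads between that domain and the genes' own domain 8.74% passed, so that only Ccdc93 was above it. The Steap3-Marco domain held 5 of 41, 20 of 41, 3 of 39 and 0 of 35. Of all pairs with enough reads between it and the genes' own domain, 28.9% passed. There Ccdc93 was above the background, and Insig2, Htr5b and Ddx18 were below it. None of the enriched bins lay in the genes' own domain. All were at lower coordinates than the viewpoint except 3 of the 9 of Ddx18, which lay above it.

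In all, 64 bins were enriched with at least 1 promoter, 16 with at least 2, 5 with at least 3 and 1 with all 4. That single bin was the bin of the En1 start. High contact with it was common to the neighbourhood, since the 37 bins of the genes' own domain had a median O/E of 2.86 with it. The lowest of them was at 1.40. How often other sets of 4 bins of that domain share a partner was not calculated, so these overlaps do not set the promoters apart. The other 4 shared by 3 promoters were 122480001 and 122460001, both just below En1, and 120200001 with the Tsn start and 120220001, which overlaps Mki67ip. For Insig2 the partner with the highest lower bound was another bin, 122020001 to 122030000 in 3110009E18Rik, 2 kb from Dbi, an acyl-CoA-binding protein gene, with 37 read pairs against 9.57 (3.87, 2.72 to 5.33), the highest of 302 pairs at that distance. For Htr5b it was 120310001 to 120320000 inside Clasp1, with 14 against 2.82 (4.97, 2.72 to 8.34).

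The profiles were compared over bins at 100 kb or more from both promoters with an expected count of at least 5, for each member with the other 23 start bins. Insig2 and Ccdc93 were the most alike, with a Spearman rho of 0.81 over 274 bins. Htr5b came closest to Ccdc93 (0.64 over 291 bins) and then to Insig2 (0.61 over 264). Ddx18 was nearest to Htr5b (0.51 over 270) and then to Ccdc93 (0.33 over 260). The best score with a gene outside the 4 was 0.28 for Ccdc93 with the bin of Dbi and 3110009E18Rik, 0.27 for Insig2 with Tsn, 0.25 for Ddx18 with Tsn and 0.20 for Htr5b with the Dbi bin. The profile of En1 scored below 0 with all 4, at -0.28 with Insig2, -0.18 with Ccdc93, -0.23 with Htr5b and -0.25 with Ddx18. The bins are neighbours in 1 map and share its depth, so these values describe the profiles and carry no p.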

How the data were processed

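Both samples' libraries were merged into 1 map before deposition, with no column per sample. Per the labels the build is mm9, and the submitters' processing notes name Bowtie2 2.3.4.1, Juicer 1.7.6 and SAMtools; the file names give a mapping quality minimum of 30 and a length of 50 bp of unstated meaning. The authors deposited raw read pair counts per bin pair, and a balanced contact signal named KR, which scales rows and columns to equal totals. Raw and KR tables at 10 kb, and at 5 kb where stated, were used.

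Balancing factors were recovered from count over signal (largest log error 1.2e-07). The expected count was the mean KR at a distance, over bins from 120.18 Mb up, times both factors. Intervals are exact Poisson, or Wilson for shares, at 95%, for counting error only. Domains lie between minima of a 150 kb insulation score with prominence of at least 0.2. The scripts ran in Python 3.11.15 with numpy 2.4.6, scipy 1.17.1 and pandas 2.3.3, and were tested on simulated maps. Sequence came from the NCBIM37 chromosome 1.

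Named partners were, per viewpoint, the 3 bins with the highest lower bound at 100 kb or more and at 1 Mb or more, and the 3 with the lowest upper bound within 1 Mb; the text gives some of these, and bins singled out beside them were chosen after their values were seen. Comparison viewpoints were the other coding starts. The members, domain limits, thresholds and lists were chosen with earlier results of these data known, and the 9-base piece after the upstream sequences were seen. The probe positions were not used here, and the upstream window of Htr5b is not reported here. The alternatives were other bin sizes, expected values, wider viewpoints, low bins left out and other call thresholds. A rescaled expected count was added after seeing the data.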

Additional observations from a re-analysis of the deposited data

How the results depend on the processing

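The excess with the En1 start bin and at 1 Mb or more stayed above 1 for each promoter and for their sums under every alternative run. For the En1 start bin the sum of 3.06 moved to 3.92 with the expected count from distance alone and 3.62 with the median KR. For far contacts the sum of 1.42 moved to 1.53 in 5 kb bins, 1.47 with all bins of the map behind the expected count, 1.52 from distance alone, 1.59 with the median KR, 1.46 with a wider viewpoint and 1.54 rescaled. The En1 domain sum of 0.892 moved to 0.942 in 5 kb bins, 0.861 with KR values, 0.922 with all bins and 0.959 rescaled, and reversed to 1.03 from distance alone and 1.03 with the median KR; Htr5b there reversed to 1.02 from distance alone. The own domain sum of 0.955 moved to 0.968, 0.972, 0.920 and 0.976 (5 kb bins, KR values, all bins, median KR) and reversed to 1.06 from distance alone and 1.02 rescaled. Among single promoters in the own domain, Insig2 reversed to 1.06 with a wider viewpoint and 1.02 rescaled, Ccdc93 to 1.01 in 5 kb bins and 1.27 from distance alone, Htr5b to 0.974 in 5 kb bins and 0.944 with a wider viewpoint, and Ddx18 to 1.04 rescaled. Above Ddx18, Ddx18 reversed to 1.02 rescaled. The sum of the 6 pairs among the promoters, 0.893, reversed to 1.14 in 5 kb bins and 1.03 from distance alone. The 86 enriched partners became 173 from distance alone, 131 with the median KR, 165 at a lower bound above 1.2, 31 above 2, 57 at 20 read pairs or more and 38 with a local ring. Of 240 values of single promoters under alternatives, 141 stayed within the interval of the reported value, 90 moved outside it on the same side of 1 or from an interval that held 1, and 9 crossed 1 from an interval that did not hold it. Counting every crossing, 15 values changed side; the other 6 were of Ccdc93 with Htr5b, Insig2 with Ddx18 and Ccdc93 with Ddx18, whose reported intervals hold 1. Apart from rescaling, which only removes the effect of each viewpoint's total, and stricter or looser thresholds, the cause was not tested. Leaving out a sample could not be run, since both samples are merged. No paired analysis was possible because the tables carry no column per sample. Depth limits single pairs at 1 Mb or more, where the median expected count per bin was 4.65 to 6.20.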
